A study of Ovis aries with 16 samples.

Results

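SQLE, ACLY and ACSS2, genes of acetyl-CoA supply and sterol synthesis, were followed in the left ventricle of 16 late-gestation fetal sheep. The genes were selected on their treated to untreated twin ratios and on how these varied over the twin sets, as seen in earlier results of these data. Every non-control probe that carried their name was kept. This gave 5 probes of the 15008 on the array, and 3 of the 870 genes that could be named. SQLE had 2 probes, ACLY had 1 and ACSS2 had 2. Because their treatment responses were known when they were picked, those responses are described here without a test.

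Acetyl-CoA is the carbon source of both sterols and fatty acids. ATP-citrate lyase, encoded by ACLY, makes it in the cytosol from citrate that leaves the mitochondria, and the acetyl-CoA synthetase encoded by ACSS2 makes it from acetate. Squalene epoxidase, encoded by SQLE, adds oxygen to squalene early in the branch of the pathway that leads only to sterols, and is among its slow, regulated steps. In many cells the SREBP transcription factors raise all these genes when sterols run low, and dividing cells need the products for new membrane.

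The sheep were 8 sets of twins, numbered as in the labels, catheterised at 125 to 126 days of a 145-day gestation and studied after 5 days of intravenous infusion. In sets 1 to 4 a fetus of each pair received losartan, which blocks the AT1 receptor for angiotensin II, and in sets 5 to 8 a fetus of each pair received angiotensin II itself. The other fetus of each pair was the untreated twin, so there were 4 groups of 4. The labels call the infusion daily in some places and continuous in others, and the tissue free wall alone or free wall with septum. No strain, sex or dose is given, and no cell type was separated from the ventricle, so fewer cells of a type and less RNA per cell cannot be told apart. Each fetus had 1 array. The treatment p-values below rest on the spread of the twin differences, pooled over both arms. Those over untreated fetuses rest on the spread between single fetuses.

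The probes are 60 bases long, and their sequences show how independent the 2 readings of a gene are. The sole ACLY probe (A_70_P039356) ends in the triplet TAA, in capitals. The ACSS2 probes (A_70_P068001 and A_70_P068002) were designed on the same expressed sequence tag and share 30 bases, in capitals: these bases open probe 1 and close probe 2. They are therefore overlapping readings of a single stretch of RNA and not separate measurements. All are written 5′ to 3′ as in the scanner files.
ACLY probe: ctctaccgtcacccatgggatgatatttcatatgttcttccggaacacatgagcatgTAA
ACSS2 probe 1: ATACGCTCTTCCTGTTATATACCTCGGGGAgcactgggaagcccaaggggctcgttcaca
ACSS2 probe 2: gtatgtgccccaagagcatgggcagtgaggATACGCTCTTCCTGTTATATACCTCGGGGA
The SQLE probes (A_70_P051331 and A_70_P051332) came from the same RefSeq transcript and were poorer in G and C (36.7% and 35.0%) than the ACLY probe (43.3%) and the ACSS2 probes (55.0% and 53.3%). Both probes of a gene tracked each other closely. Over the 16 arrays the SQLE pair correlated at 0.99 and the ACSS2 pair at 0.98. The twin ratios of the 2 probes had the same sign in 8 of 8 sets for each gene, and differed by at most 0.26 for SQLE and 0.32 for ACSS2 on the log2 scale. Levels below are therefore those of the brighter probe, called probe 1, unless stated. SQLE and ACLY were well above background on 16 of 16 arrays, as was ACSS2 probe 1, whereas ACSS2 probe 2 was so on 12.

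Levels are log2 processed signals relative to the 75th percentile of their array, so 0 is a probe as bright as that percentile, and levels of different probes are not set against each other. The 75th percentile was 1124 to 1709 fluorescence units, and 57.3% to 64.1% of probes were well above background. The arrays lay on 2 slides of 8. In the losartan arm 3 of 4 treated fetuses were on slide 2 and 3 of 4 untreated twins on slide 1. In the angiotensin II arm each slide held 2 of each. Twins shared a slide in sets 2, 3, 6 and 8. The arrays of the untreated twin of set 2 and of the angiotensin II fetuses of sets 7 and 8, all in row 2 of slide 2, stood apart from the other 13 in overall signal pattern. Of the cardiomyocyte markers listed, 0 of 10 had a named probe, so the labelled tissue could not be checked against them. As 13551 of the 15008 probes could not be named, this does not show that the array lacks these markers. Of 4 liver markers with a named probe, ALB reached at most 2 of 16 arrays well above background, and TTR, AHSG and SERPINA1 reached 0.

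Of the 3 genes SQLE had the widest range over untreated fetuses. Over the 8 untreated fetuses SQLE levels ran from -0.97 in set 8 to 0.93 in set 7, with a median of 0.59, which is a 3.71-fold range. ACLY ran from -1.82 in set 3 to -0.31 in set 6 (median -1.27), a 2.85-fold range. ACSS2 ran from -2.89 in set 3 to -1.62 in set 2 (median -2.31), a 2.41-fold range. The extremes thus fell in different sets for different genes, and whether the ranges differ between genes was not tested.

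The untreated twins of the 2 arms were alike on average, within wide limits. The losartan arm minus the angiotensin II arm was 0.06 for SQLE (95% interval -0.86 to 0.98), 0.07 for ACLY (-0.70 to 0.83) and -0.02 for ACSS2 (-0.78 to 0.73). The limma adjusted p was 0.999 for each, with n = 4 per arm. The untreated levels enter the twin ratios on which the genes were selected. These p-values are therefore not independent of that choice, and nothing is read from them. In the comparison of untreated arms 0 of 8966 tested probes passed an adjusted p of 0.05 (0.0% of them), and 299 had an unadjusted p under 0.05. The intervals leave room for differences near 2-fold either way, so the comparison does not show that the arms started equal. The sign of each difference also turned when single fetuses were left out.

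**Figure D1:**
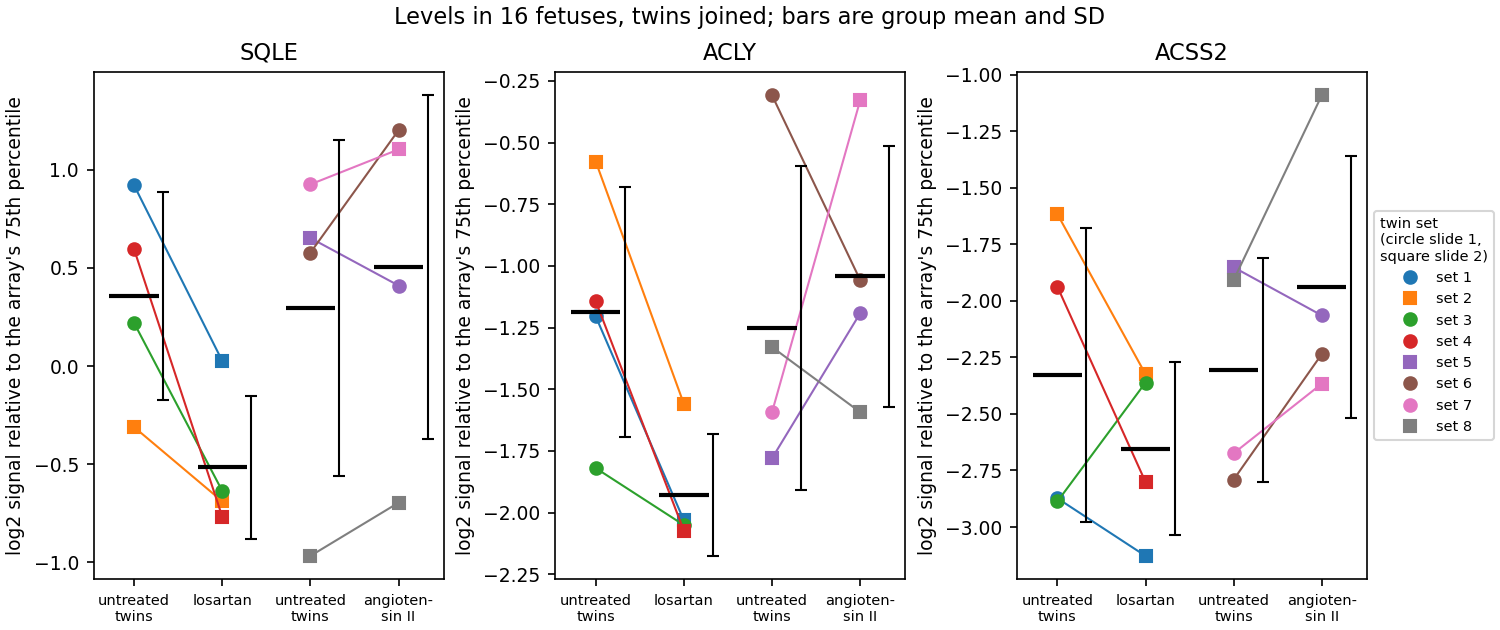
Log2 signal of SQLE, ACLY and ACSS2 (probe 1 of each), relative to the 75th percentile of the array, in the 4 groups of 4 fetuses. Points are fetuses, lines join twins, circles are slide 1 and squares slide 2; the thick bar is the group mean and the thin bar the SD. In the losartan arm SQLE and ACLY lines all go down, while in the angiotensin II arm lines of each gene go both ways.

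In all 4 losartan sets the treated fetus had less SQLE signal than its untreated twin. The losartan fetuses of sets 1 to 4 had SQLE levels of 0.03, -0.69, -0.64 and -0.77. Their untreated twins had 0.92, -0.31, 0.22 and 0.59. The groups overlap, since the losartan fetus of set 1 lay above the untreated twin of set 2, and the difference shows within pairs. The twin log2 ratios were -0.89, -0.38, -0.86 and -1.36, and the estimate was -0.87 ± 0.17 (SE, n = 4 pairs), or 1.83-fold lower. Here and below the SE of an estimate is the limma one, from a spread pooled over both arms. Probe 2 gave -0.93 ± 0.16, with twin ratios of -0.94, -0.58, -0.89 and -1.33.

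With angiotensin II the SQLE ratios were smaller and mixed in sign. The angiotensin II fetuses of sets 5 to 8 had SQLE levels of 0.41, 1.20, 1.10 and -0.70. Their untreated twins had 0.65, 0.58, 0.92 and -0.97. Both fetuses of set 8 lay below the other fetuses of their arm, and the groups overlap. The ratios were -0.24, 0.62, 0.18 and 0.27, with an estimate of 0.21 ± 0.17 (SE, n = 4 pairs), so the treated fetus was higher in 3 of 4 sets. The angiotensin II effect minus the losartan effect was 1.08 ± 0.24 on probe 1 and 1.11 ± 0.22 on probe 2.

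ACLY was likewise lower in the losartan fetus in all 4 sets. The losartan fetuses of sets 1 to 4 had ACLY levels of -2.03, -1.56, -2.05 and -2.07. Their untreated twins had -1.20, -0.58, -1.82 and -1.14. Set 2 was the highest of its group on both sides of the comparison, and its losartan fetus lay above the untreated twin of set 3, so the groups overlap. The ratios were -0.83, -0.98, -0.23 and -0.93, and the estimate was -0.74 ± 0.28 (SE, n = 4 pairs), or 1.67-fold lower.

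With angiotensin II the ACLY ratios spread more widely, and 2 sets went each way. The angiotensin II fetuses of sets 5 to 8 had ACLY levels of -1.19, -1.06, -0.33 and -1.59. Their untreated twins had -1.78, -0.31, -1.59 and -1.33. The highest treated fetus was that of set 7 and the highest untreated twin that of set 6, and these sets had the most distant ratios. The ratios were 0.59, -0.75, 1.26 and -0.26, with an SD of 0.89 against 0.35 in the losartan arm. The estimate was 0.21 ± 0.28 (SE, n = 4 pairs), and it was -0.14 without set 7, so its sign rests on that set. Being pooled over both arms, the SE does not show the wider spread of this arm. Set 7 holds an array that stood apart, and without sets 2, 7 and 8 the estimate was -0.08. The difference of the effects was 0.95 ± 0.40, and 0.58 without those sets.

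ACSS2 had the smallest estimate of the 3 genes with losartan, and its sets disagreed in sign. The losartan fetuses of sets 1 to 4 had ACSS2 levels of -3.13, -2.32, -2.36 and -2.80. Their untreated twins had -2.87, -1.62, -2.89 and -1.94. Set 3 was the exception, with the losartan fetus above its twin, and the groups overlap. The ratios were -0.25, -0.71, 0.53 and -0.86, and the estimate was -0.33 ± 0.23 (SE, n = 4 pairs). Probe 2, below the threshold for well above background on 4 of these 8 arrays, gave -0.21 ± 0.19.

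In the angiotensin II arm ACSS2 was higher in the treated fetus in 3 of 4 sets. The angiotensin II fetuses of sets 5 to 8 had ACSS2 levels of -2.06, -2.23, -2.37 and -1.09. Their untreated twins had -1.85, -2.79, -2.67 and -1.91. The treated fetus of set 8 was the highest of all 16 fetuses. The ratios were -0.21, 0.56, 0.31 and 0.82, and the estimate was 0.37 ± 0.23 (SE, n = 4 pairs), falling to 0.17 without sets 2, 7 and 8. Probe 2 gave 0.37 ± 0.19, and the difference of the effects was 0.69 ± 0.32.

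**Figure D2:**
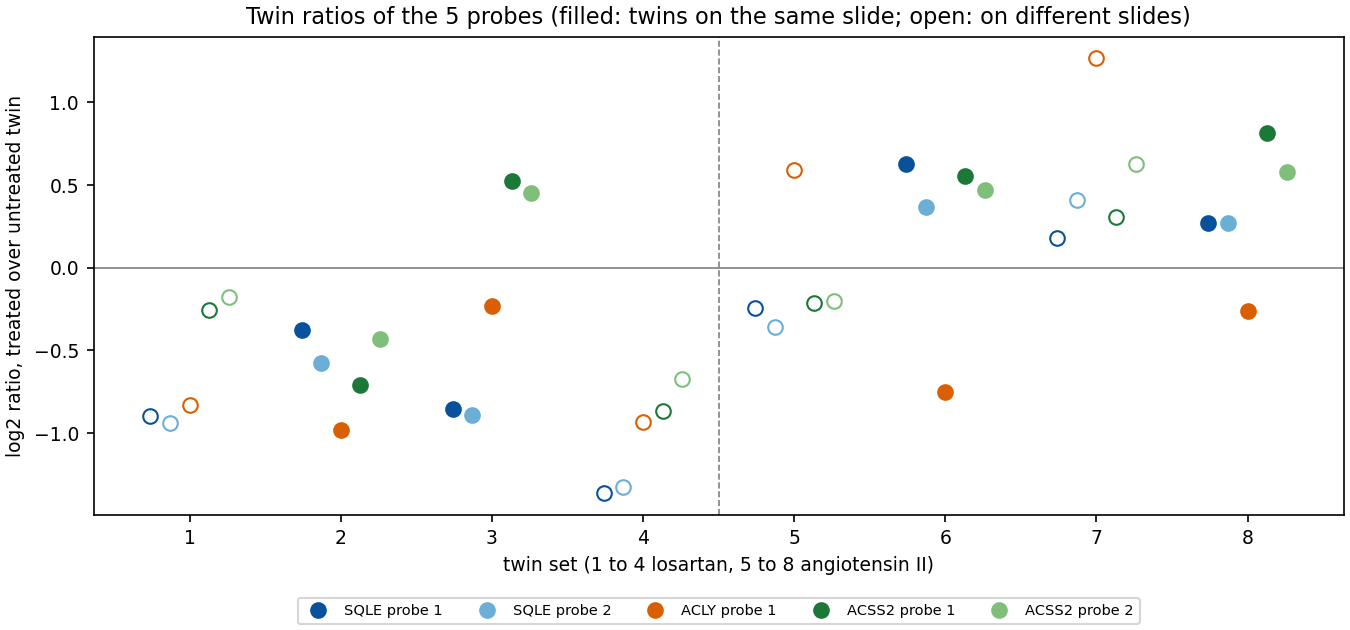
Log2 ratio of the treated over the untreated twin (y axis) for the 5 probes in twin sets 1 to 8 (x axis), with losartan sets left of the dashed line; filled points are twins hybridised on the same slide, open points twins on different slides. Both SQLE probes are below 0 in sets 1 to 5 and above 0 in sets 6 to 8, and ACLY is above 0 in sets 5 and 7 only.

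Set 5 differed from the other angiotensin II sets in direction. Its ratios were negative on both SQLE probes and both ACSS2 probes, whereas sets 6, 7 and 8 were positive on all 4. ACLY did not follow this division, being positive in sets 5 and 7.

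By group mean, each gene was lowest in the losartan group and highest in the angiotensin II group. SQLE averaged -0.52 ± 0.37 with losartan, 0.30 ± 0.86 in untreated twins of the angiotensin II arm, 0.36 ± 0.53 in those of the losartan arm and 0.51 ± 0.88 with angiotensin II (mean ± SD, n = 4 each). ACLY averaged -1.93 ± 0.25, -1.25 ± 0.66, -1.19 ± 0.51 and -1.04 ± 0.53 in the same order of groups. ACSS2 averaged -2.65 ± 0.38 with losartan, -2.33 ± 0.65 and -2.31 ± 0.50 in the untreated twins of the losartan and angiotensin II arms, and -1.94 ± 0.58 with angiotensin II. Neighbours in these orders lay closer than the larger of their SDs in every case but the lowest step of ACLY. The order of group means therefore carries little that the twin pairs do not.

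Over all tested probes, 109 of 8966 (1.22%) passed a limma adjusted p of 0.05 with losartan, of which 89 were lower (0.993%). Among the 5 member probes 2 were in this group, both of SQLE and both lower, and since the genes were picked with this contrast known nothing is read from that count. Over 20 alternatives SQLE probe 1 kept this call in 6 and probe 2 in 12. With angiotensin II 0 of 8966 probes passed (0.0%) and 0 of the 5, while 935 had an unadjusted p under 0.05. For the difference of the effects 147 passed (1.64%), 119 of them with the angiotensin II effect the higher (1.33%), and SQLE probe 2 was the sole member probe among them, keeping its call in 8 of 19 alternatives. The median member estimate was -0.74 with losartan against 0.01 over all probes, and 0.21 with angiotensin II against -0.02. The genes were picked with these estimates known, so nothing is read from the gaps, and the 5 probes stand for 3 genes. Being lower in 4 of 4 losartan sets, as SQLE and ACLY were, was shared by 11.2% of tested probes.

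The slides bear on these estimates, since treated and untreated arrays were unevenly split between them in the losartan arm. With the slide as a further term the losartan estimates were -0.86 for SQLE, -0.81 for ACLY and -0.33 for ACSS2, close to those without it. Within a slide, where twins are no longer paired and a losartan-arm group has as few as 1 array, they moved much more. SQLE was -1.21 on slide 1 and -0.17 on slide 2. ACLY was -0.66 and -1.31 on the same slides, and ACSS2 was 0.21 and -1.14. The slide 2 values all use the untreated twin of set 2, an array that stood apart, as the only untreated array of that arm. In pairs that shared a slide the mean losartan ratio was -0.62 for SQLE, -0.61 for ACLY and -0.09 for ACSS2, against -1.13, -0.88 and -0.56 in pairs that did not. SQLE and ACLY were below 0 in both kinds of pair, with 2 pairs of each kind. Since every losartan ratio of these genes was negative, no split of the pairs could have given otherwise, and nothing is read from that.

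In the angiotensin II arm the difference between the 2 kinds of pair was larger than the estimate for each of the 3 genes. Pairs that shared a slide gave mean ratios of 0.45 for SQLE, -0.51 for ACLY and 0.69 for ACSS2. The other pairs gave -0.03, 0.93 and 0.05. Both shared-slide ACLY ratios were negative and both others positive. Within slide 1 the estimates were 0.06, -0.17 and 0.58 in the same order of genes, and within slide 2 they were 0.36, 0.59 and 0.15. The part of the slides in these differences was not tested.

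Likeness between twins was highest for SQLE. After subtraction of each group's mean, the treated and untreated levels of SQLE correlated at r = 0.85 over the 8 sets (Spearman rho 0.79). The r of SQLE was as high in 2.20% of 8961 tested probes, whose median was 0.23. ACLY gave r = 0.11 (rho 0.33) and ACSS2 gave r = 0.50 (rho 0.52). These values are a description with no p, since they come from the twin levels on which the genes were selected and were computed after those levels had been seen. Without sets 2 and 8, the untreated twins farthest from their group mean, r for SQLE was 0.62, and it was 0.71 in the deposited value table. In 4 of the 8 sets the twins also shared a slide.

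**Figure D3:**
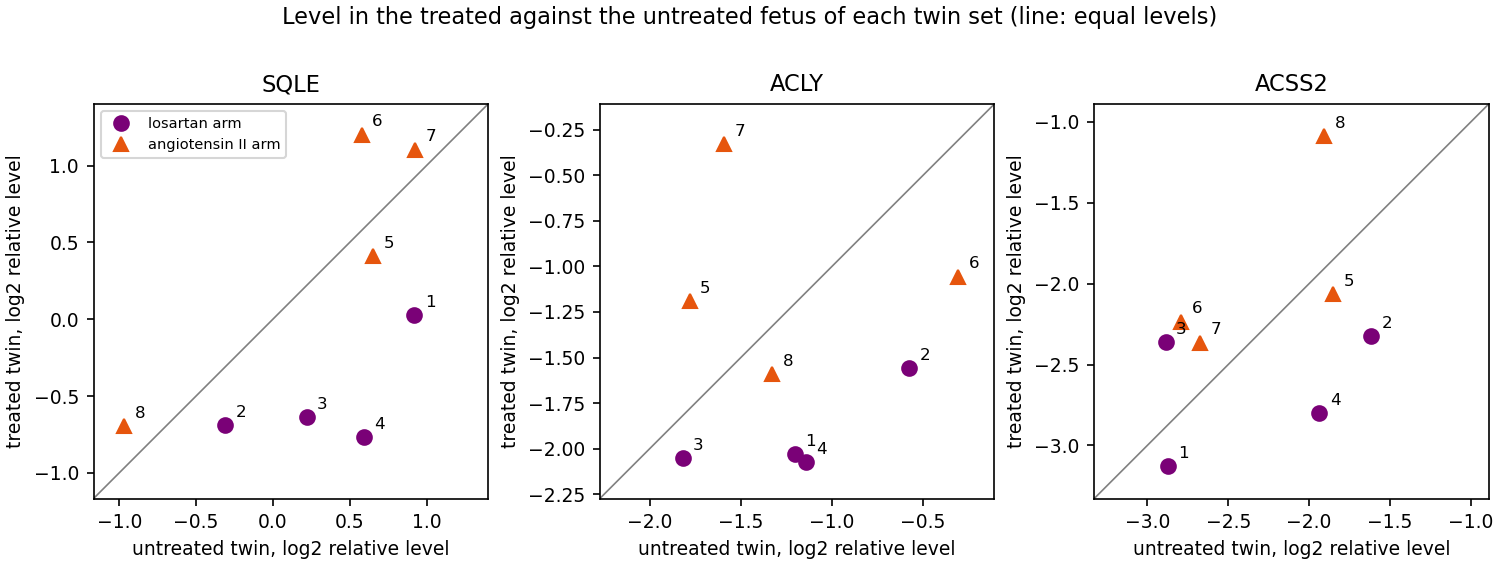
Level of the treated twin (y axis) against the untreated twin (x axis), both log2 relative to the 75th percentile, for each gene in twin sets 1 to 8; circles are the losartan arm, triangles the angiotensin II arm, and the line marks equal levels. SQLE points rise from set 8 at the lower left, with the losartan sets below the line; ACLY points show no such slope.

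Correlations of the 3 genes over the 8 untreated fetuses were small, or rested on 2 sets. SQLE and ACLY correlated at r = -0.14 (exact permutation p = 0.759, adjusted over 3 pairs 0.785; rho -0.19, p = 0.665), and at 0.12 without sets 2 and 8. SQLE and ACSS2 correlated at r = -0.54 (exact permutation p = 0.18, adjusted 0.541; rho -0.29, p = 0.501). That value rested on sets 2 and 8, where SQLE was low and ACSS2 high, for it was 0.01 without them and 0.02 after centring within slides. ACLY and ACSS2, the 2 acetyl-CoA enzymes, correlated at r = 0.10 (exact permutation p = 0.785, adjusted 0.785; rho 0.21, p = 0.619) and at 0.18 without sets 2 and 6. With 8 fetuses a moderate relation would be missed. The untreated levels also enter the twin ratios on which the genes were selected. These p-values are therefore not independent of that choice, and nothing is read from them.

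Twin ratios covaried mainly through the difference between arms. As a description, SQLE and ACSS2 ratios correlated at 0.66 and had the same sign in 7 of 8 sets, set 3 being the exception, and r was 0.37 once each arm's mean was subtracted. SQLE and ACLY gave 0.37 with 5 of 8 signs alike, and -0.42 within arms. ACLY and ACSS2 gave 0.36 with 4 of 8 signs alike, and -0.02 within arms. The points share arrays and slides, so no p is given.

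**Figure D4:**
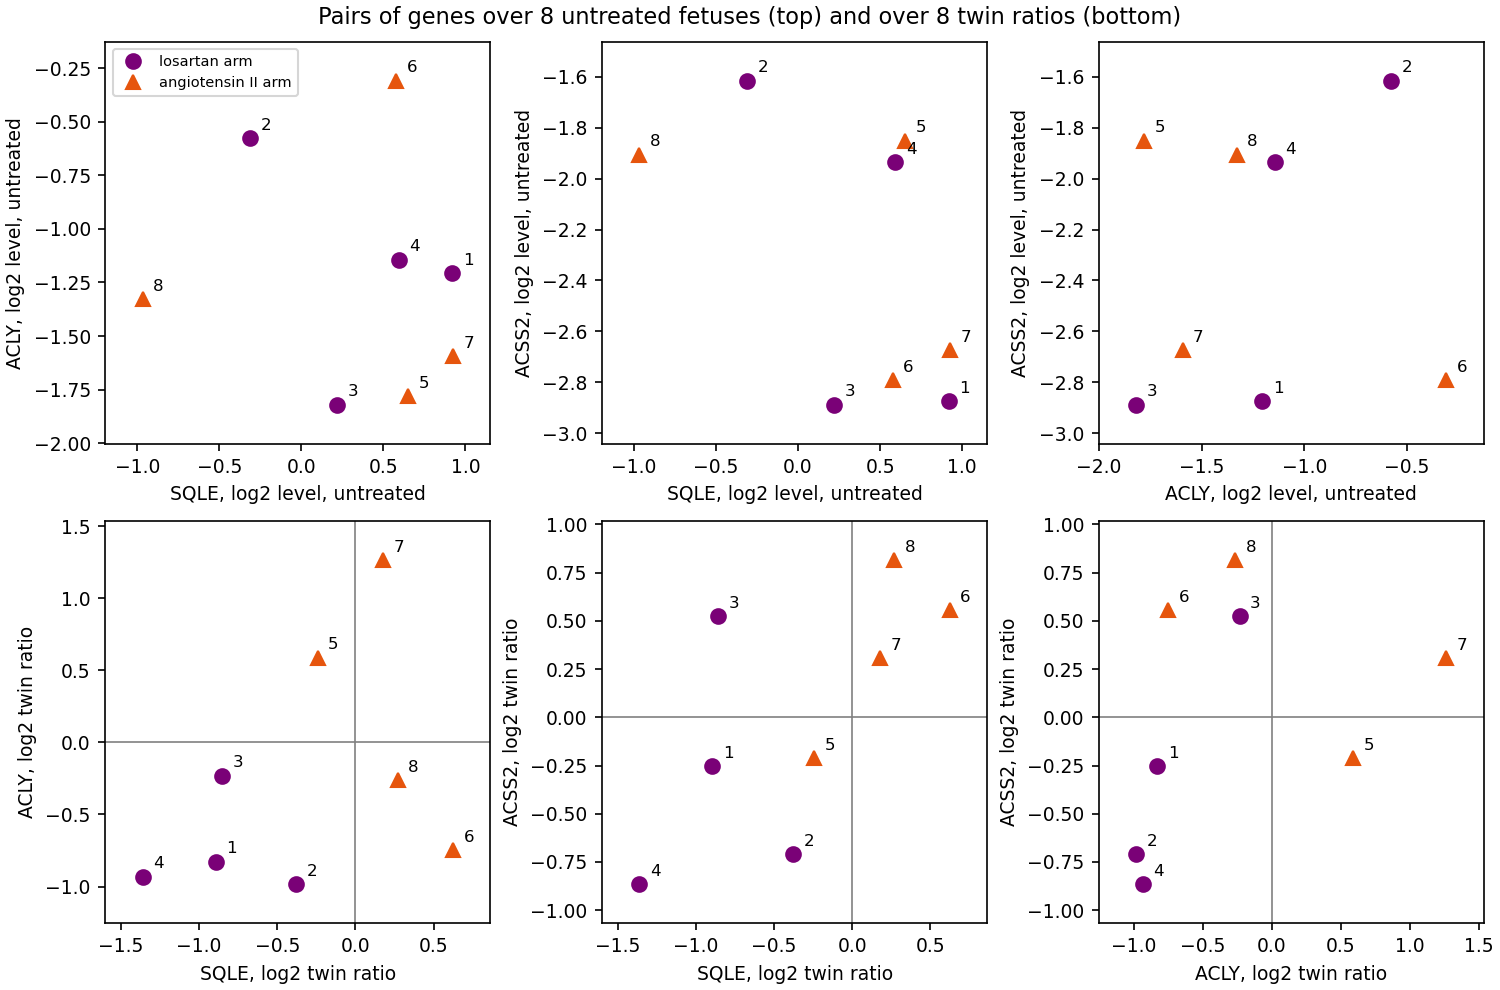
Each pair of genes over the 8 untreated fetuses (top row, log2 relative levels) and over the 8 twin log2 ratios (bottom row), labelled by twin set; circles are the losartan arm and triangles the angiotensin II arm. In the top middle plot sets 2 and 8 carry the negative correlation of -0.54. In the bottom left and middle plots the arms separate along the SQLE axis, and in the bottom right plot they overlap along both axes.

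Among 456 named genes compared by their 8 twin ratios, the members were not each other's nearest neighbours. For SQLE, ACSS2 ranked 55 and ACLY 154. The 3 most like SQLE were YWHAH, a 14-3-3 adaptor protein (r = 0.96), TYMS, which makes thymidylate for DNA synthesis (0.95), and PTGER3, a prostaglandin E2 receptor (0.95). Over the 16 levels TYMS remained close at 0.87, whereas YWHAH (0.10) and PTGER3 (0.11) did not. For ACLY they were SRI, the calcium-binding sorcin (0.89, and 0.83 over levels), CTSB, a lysosomal protease (0.86 and 0.39), and RAN, the GTPase of nuclear transport (0.85 and 0.76). For ACSS2 they were APOA1, the main protein of high-density lipoprotein (0.87 and 0.57), PYGB, a glycogen phosphorylase (0.86 and 0.58), and CBX5, a heterochromatin protein (0.84 and 0.32). These are the highest of many values and carry no test.

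Few other genes of the same pathways could be read by name on this array. A gene name was lacking for 13551 of the 15008 probes, so a listed gene without a named probe may still be on it. Of 23 cholesterol synthesis genes listed, SQLE and TM7SF2, a sterol reductase, had named probes, and TM7SF2 was well above background on 1 of 16 arrays. ACACA and FASN, which carry acetyl-CoA into fatty acids, were so on 0, and SCD, which desaturates them, on 1. Their response is therefore not measured here. Of 26 acetyl-CoA supply genes, 2 besides the members were tested and 0 passed in any contrast. IDH1, the cytosolic isocitrate dehydrogenase, was 0.40 ± 0.22 with losartan (limma adjusted p = 0.498) and ME1, the cytosolic malic enzyme, -0.02 ± 0.20 (0.977). IDH1 thus had the opposite sign to ACLY.

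Sterol transport genes gave no call either. NPC2, which moves cholesterol out of lysosomes, was -0.01 ± 0.09 with losartan and -0.19 ± 0.09 with angiotensin II (limma adjusted p = 0.481). APOA1 was -1.05 ± 0.27 with losartan, below the untreated twin in 4 of 4 sets, at an adjusted p of 0.126, and its difference of effects was 1.46 ± 0.38 (0.0948). LCAT, which esterifies cholesterol in lipoproteins, was -0.23 ± 0.10 with losartan (0.367), and OSBP, an oxysterol-binding protein, -0.02 ± 0.10 (0.964). Of 5 tested genes of fatty acid synthesis, SCD5, HACD1, DGAT1, PPARG and PPARGC1A, 0 passed in any contrast. With losartan their median was 0.09 and 4 of 5 lay above 0, with SCD5, a desaturase, at 0.26 ± 0.17. The nearest to a call with angiotensin II was PPARGC1A, a coactivator of mitochondrial genes, at 0.43 ± 0.21 (limma adjusted p = 0.481).

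Cell-cycle genes moved in the same arm as SQLE and ACLY. This list comes from an earlier report on these data, so its direction is not independent. Of 25 genes listed 9 were tested. With losartan all 9 estimates lay below 0. Of these genes 6 passed as lower, beside 0.993% of all probes called lower. Their log2 estimates were -2.19 ± 0.30 for CCNB1, -2.07 ± 0.22 for CDK1 and -1.88 ± 0.22 for CCNA2, which drive entry into mitosis, -1.83 ± 0.35 for the spindle gene ASPM, -1.82 ± 0.20 for TYMS and -0.73 ± 0.11 for the replication clamp PCNA (limma adjusted p = 0.00833, 0.00233, 0.00404, 0.0444, 0.00273 and 0.0126). CCND2, CDK4 and CDK2 were -1.20, -0.27 and -0.18 and did not pass. ASPM, CCNA2 and CDK1 were well above background on 10, 12 and 14 of 16 arrays, so some of their values lay near background. CCNB1, TYMS and PCNA were so on 16. The list's median was -1.82, against 0.01 over all probes. With angiotensin II 0 of 9 passed, and 8 lay above 0. The list's summed level, in multiples of the 75th percentile, was 2.79 to 5.27 in losartan fetuses and 7.44 to 13.1 in their twins, and 9.74 to 18.2 in angiotensin II fetuses and 5.35 to 10.4 in theirs.

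Smooth muscle markers moved as well. With losartan the estimates of all 3 tested markers lay below 0. Of these markers 2 passed as lower, beside 0.993% of all probes called lower. CNN1, calponin, was -1.42 ± 0.24 and MYL9, a myosin light chain, -1.06 ± 0.14 on the log2 scale (limma adjusted p = 0.0239 and 0.00833), while MYLK was -0.36 ± 0.47. Their summed level was 13.1 to 19.8 in losartan fetuses against 29.4 to 42.7 in their twins, and 51.4 to 74.6 in angiotensin II fetuses against 28.7 to 42.1. With angiotensin II 0 of the 3 passed, CNN1 and MYL9 at a limma adjusted p of 0.403 each and MYLK at an estimate of -0.19. Tested fibroblast (4), endothelial (2), leukocyte (2), erythroid (1) and adipocyte (2) markers gave 0 calls in any contrast. HBB, the erythroid marker, was 1.15 ± 0.52 with losartan (adjusted p = 0.412). The part of cell cycle, smooth muscle or blood content in the levels of SQLE, ACLY and ACSS2 was not tested.

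Across processing settings the SQLE and ACLY estimates with losartan kept their sign, and the angiotensin II estimates did not all do so. SQLE ran from -1.21 to -0.17 and ACLY from -1.31 to -0.55, below 0 in every alternative that was run. Many of these alternatives could not have changed the sign. The estimate stays the same without the twin block, with other filters, with each arm alone or without an angiotensin II set. As every losartan ratio of these genes was negative, leaving out a losartan set cannot turn it either. ACSS2 ran from -1.14 to 0.21. With angiotensin II SQLE probe 1 ran from 0.06 to 0.36, while SQLE probe 2 ran from -0.05 to 0.40 and was below 0 within slide 1. ACSS2 probe 1 ran from 0.15 to 0.58, and ACLY from -0.17 to 0.59.

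**Figure D5:**
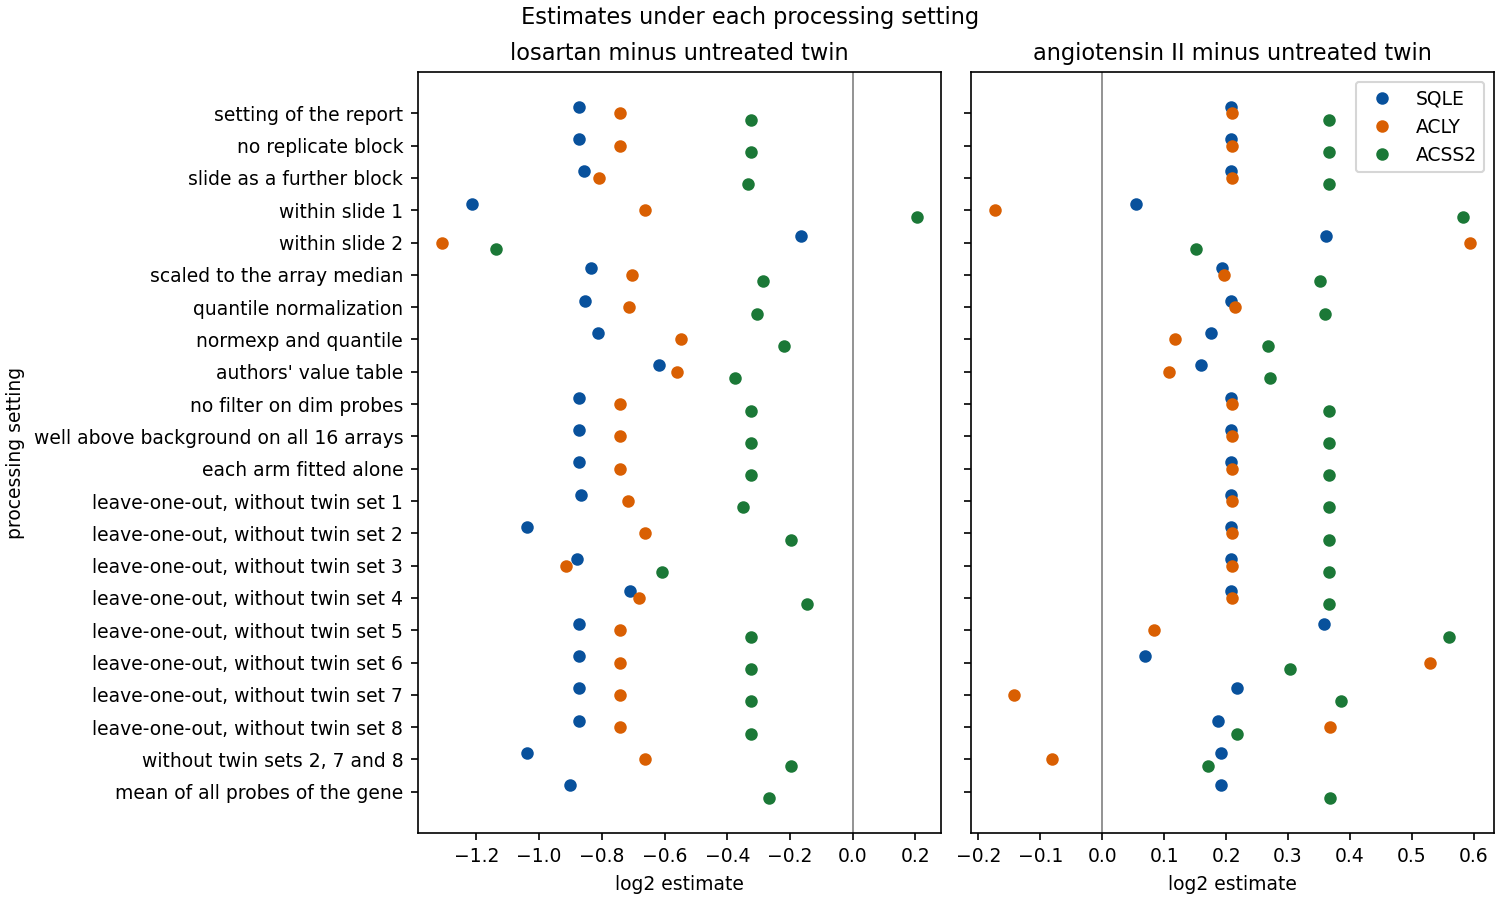
Log2 estimates (x axis) of SQLE, ACLY and ACSS2 for losartan (left) and angiotensin II (right) against the untreated twin, under each processing setting (y axis); each point is 1 fit and carries no error bar. The fit within slide 2 moves each losartan point most, and ACLY crosses 0 in the right panel.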

How the data were processed

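Gene expression was measured on a 1-colour Agilent sheep array (red channel, Cy5), 1 array for each of 16 fetuses. Per the file headers, each deposited spot intensity came from Agilent Feature Extraction 10.7.3.1 after background subtraction and detrending, and arrays were not normalized to each other. A series table that the authors deposited tracks the natural log of the raw spot signal (r at least 0.9978 per array). Its method was not given in the sources used here, and it served as an alternative.

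Control spots and outlier spots (3 to 9 per array) were left out, and spots of a probe were averaged. No probe was saturated. Processed signals were put on the log2 scale minus the 75th percentile of their array. Tests covered the 8966 of 15008 probes that all arrays of some group showed well above background. limma 3.58.1 in R 4.3.3 fitted the treatments, with the 8 twin sets as block terms and 1 term per treatment, leaving 6 residual degrees of freedom. Tests were two-sided with Benjamini-Hochberg adjustment and a threshold of 0.05. The fit was run on simulated data with independent noise and changes larger than any member estimate. That run does not cover effects of the size given here or the slides. Untreated arms were compared over 8 arrays without a block. Correlations were tested by exact permutation in scipy 1.17.1. Figures were drawn with matplotlib 3.10.9.

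The pairing comes from the labels, which give the twin sets. Deviations of twins from their group means correlated at -0.04 to 0.53, with a mean of 0.24. The values were 0.24, 0.46, 0.28 and 0.53 in sets 2, 3, 6 and 8, whose twins shared a slide. In sets 1, 4, 5 and 7, whose twins did not, they were 0.22, 0.08, -0.04 and 0.15. Likeness of twins and a shared slide are therefore not separated by the mean, and the part of the slide was not tested. The members, the gene lists, the rules and the alternatives were chosen with earlier results of these data known. Named were the 3 members with every probe. From each list came the genes past the threshold, otherwise up to 4 per contrast with the smallest unadjusted p. For likeness it was the 3 genes per member with the highest r of the twin ratios. Gene names came from the files and the RefSeq gene table of assembly ARS-UI_Ramb_v3.0. A gene was its tested probe with the highest mean. The alternatives covered scaling, quantile normalization, normexp background correction (offset 50), the deposited table, the filter on dim probes, the twin block, the slide, each arm alone and single twin sets left out. A withheld item is left out of this account.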

Additional observations from a re-analysis of the deposited data

Results flagged for a closer look

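Of 30 groups of 4 values examined, 4 held a fetus far from the others, measured as its gap to the nearest divided by the range of the group. Chance gives such a gap in about 1 group in 20 where groups are independent. These groups are not, since the probes of a gene track each other closely, so the count is not read against that rate. The losartan fetus of set 1 had a SQLE probe 1 level of 0.03 against -0.77 to -0.64 in the other 3 (gap 0.835 of the range). The untreated twin of set 8 had a SQLE probe 2 level of -2.12 against -0.37 to -0.19 in the other untreated twins of the angiotensin II arm (0.903). The losartan fetus of set 2 had an ACLY level of -1.56 against -2.07 to -2.03 (0.919). The angiotensin II fetus of set 8 had an ACSS2 probe 2 level of -1.99 against -3.01 to -2.87 (0.86), on an array that stood apart from most others.

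On SQLE probe 2 the angiotensin II effect exceeded the losartan effect by 1.11 on the log2 scale, past the threshold of the limma contrast between the arms. That call was kept in 8 of 19 alternatives, and probe 1, which missed the threshold, passed in 1 of 19. SQLE was picked with its responses known, so this is a description.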

How the results depend on the processing

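With losartan the count of probes past the threshold (109) was 433 in the deposited value table, 41 with each arm alone, 58 among probes well above background on all 16 arrays, 43 within slide 1, 548 within slide 2, and 34 to 98 with single twin sets left out (65, 34 and 49 without sets 1, 3 and 4). The difference of the effects (147) gave 1732 in the deposited table, 431 with the slide as a further block, 94 among probes well above background on all 16 arrays, 38 within slide 1, 1904 within slide 2, 75 without sets 2, 7 and 8, and 54 to 112 with single sets left out (88, 63, 78, 71, 54 and 55 without sets 1, 3, 4, 6, 7 and 8). With no replicate block for the twin sets these counts were 0 and 3. Angiotensin II (0) gave 354 within slide 2 and 1 without sets 2, 7 and 8. The untreated arms (0) gave 0 to 1 with single fetuses left out. Of the 433 losartan calls from deposited values 180 were higher, against 20 of 109. In 20 alternatives with losartan, SQLE probe 1 stayed past the threshold in 6 and probe 2 in 12.

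Within slide 2 the losartan estimates were -0.17 for SQLE, -1.31 for ACLY and -1.14 for ACSS2, and the SQLE difference of effects was 0.53. Differences between untreated arms, none of which passed, changed sign readily. SQLE was -0.067 in the deposited table, -0.17 with the slide as a block and -0.36 to 0.28 with single fetuses left out. ACLY was -0.003 after normexp, -0.007 in the deposited table and -0.14 to 0.38 with fetuses left out. ACSS2 was 0.027 in the deposited table, 0.20 with the slide as a block and -0.26 to 0.16 with fetuses left out. For untreated covariation, without the fetus of set 2 SQLE and ACLY gave 0.057 and ACLY and ACSS2 gave -0.20, and SQLE and ACSS2 gave 0.023 after centring within slides. With single fetuses left out, SQLE and ACLY ranged from -0.337 to 0.057 and ACLY and ACSS2 from -0.20 to 0.50. The cause of these changes was not tested. The 4 arrays per group limit the precision, and ACSS2 probe 2 was near background on 4 arrays.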
